A study of Homo sapiens with 40 samples.

Results

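GGCX, HOOK3, UFC1, ATP8A1, RBL1 and FSD1L are 6 of the 62754 genes counted in human lines labelled as T-cell acute lymphoblastic leukaemia (T-ALL). QKI was depleted in Jurkat and in libraries labelled HPB-ALL, and 6 lines were left untreated. The 6 genes were picked from the Jurkat knockdown, where, with same-numbered libraries compared as pairs, they were called together with QKI. 9 genes were called there in all, and the other 2, CD3G and MT-ND6, are not among the 6. Because the Jurkat difference chose the 6 genes, it is given below as a description and supports nothing. The knockdown by short hairpin RNA (shRNA) and the levels in 6 untreated lines were not used in the choice.

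Cells of the T-ALL line Jurkat were electroporated with siRNA against QKI or with a non-targeting control (NTC) siRNA, 4 biological replicates each. HPB-ALL, a second T-ALL line by its label, was transduced with virus carrying an shRNA vector against QKI or a control vector, again with 4 biological replicates each. LOUCY, KARPAS-45, DND-41, ALL-SIL, HPB-ALL and TALL-1 were sequenced untreated, 4 libraries each. By the labels, fetal calf serum was at 20% in the medium of HPB-ALL and KARPAS-45 and at 10% in that of Jurkat and the other 4 lines. Wherever lines or tables with different serum are set side by side, serum cannot be told apart from the line. The knockdowns address the effect of QKI loss on transcript levels and splicing, and the untreated lines relate splicing to QKI abundance. Only gene totals were analysed here.

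QKI, a STAR family protein, binds ACUAAC-like RNA sequences in precursor and mature messenger RNA and acts in splicing, RNA stability and translation. In splicing, its effect is known to depend on where it binds relative to an exon. The 6 genes belong to different pathways. GGCX is the carboxylase of the endoplasmic reticulum that uses reduced vitamin K to modify glutamate residues of clotting factors and other secreted proteins. HOOK3 is an adaptor that links cargo to the microtubule motor dynein. UFC1 is the conjugating enzyme that passes the ubiquitin-like protein UFM1 to its targets. ATP8A1 is a P4-type ATPase that flips phosphatidylserine to the cytosolic side of membranes. RBL1 encodes p107, a pocket protein that binds E2F factors and represses cell cycle genes. FSD1L is a paralogue of the microtubule-associated protein FSD1.

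Each gene's main coding transcript was searched on its own strand for the hexamers ACTAAC and ACTAAT, which read ACUAAC and ACUAAU in RNA. All 6 transcripts held at least 1. RBL1 held 3, FSD1L held 2, and GGCX, UFC1 and ATP8A1 held 1 each. The windows below, each of 30 bases from GENCODE 29 transcripts, show where such letters stand in FSD1L, RBL1 and ATP8A1, with the hexamer in capitals.
FSD1L, coding part: gaacataggaagACTAATtttgatggactt
FSD1L, 3′ UTR: ttctgtgcagttACTAATcacaggaatttg
RBL1, 3′ UTR, site 1: ccttttaaaaatACTAATagtccggccagg
RBL1, 3′ UTR, site 2: gatttggccgtcACTAATtagtattctcaa
RBL1, 3′ UTR, site 3: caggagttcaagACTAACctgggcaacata
ATP8A1, 3′ UTR: atctgaaatgtgACTAATttgagcctcttt
The FSD1L windows lie at chr9:105506509-105506538 and chr9:105546530-105546559 on the plus strand. The RBL1 windows lie at chr20:36998517-36998546, chr20:36996971-36997000 and chr20:36996638-36996667 and the ATP8A1 window at chr4:42410656-42410685, all on the minus strand. RBL1 site 3 holds ACTAAC, and the others hold ACTAAT. Such letters are frequent: 42.0% of 19684 coding transcripts held at least 1. Among transcripts within 10% of the same length the share was 81.1% for ATP8A1, 78.8% for GGCX and 69.8% for RBL1, and it was lower for the short transcripts of FSD1L (23.8%) and UFC1 (16.4%). A match describes the letters and is neither a binding site nor a cause.

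On GRCh38, by GENCODE 29, GGCX (ENSG00000115486.13 in the deposited tables) spans chromosome 2 from 85544723 to 85561547 on the minus strand. HOOK3 (ENSG00000168172.9) spans chromosome 8 from 42896932 to 43030539 on the plus strand. Its transcript held 8 of the hexamers, all in the 3′ UTR. Among transcripts of similar length, 86.7% held at least 1 anywhere in the transcript. UFC1 (ENSG00000143222.12) spans chromosome 1 from 161152776 to 161158856 on the plus strand. ATP8A1 (ENSG00000124406.17) spans chromosome 4 from 42408373 to 42657105 on the minus strand. These genes differ widely in size, and UFC1 is the shortest of them. RBL1 (ENSG00000080839.12) spans chromosome 20 from 36996349 to 37095995 on the minus strand, and FSD1L (ENSG00000106701.13) spans chromosome 9 from 105447796 to 105552433 on the plus strand.

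Summed gene counts were 68.4 to 115.7 M (1e6 counts) in Jurkat QKI siRNA libraries and 103.8 to 134.2 M in Jurkat controls, 119.8 to 134.9 M in QKI shRNA libraries and 81.0 to 127.1 M in their controls, and 44.1 to 84.0 M in the untreated lines. All levels below are counts per 1e6 (CPM) scaled by TMM within 1 table, so levels from different tables rest on separate normalizations. All 6 genes passed the filter on low counts in all 3 tables. The shRNA libraries labelled HPB-ALL went against that label. None of 12 T-cell markers passed 1 CPM in them, with summed levels of 1.22 to 1.40 CPM with the QKI shRNA and 1.30 to 1.49 CPM with the control shRNA, against 6101 to 8832 CPM in untreated HPB-ALL. 9 of 12 myeloid markers passed 1 CPM there, summing to 4949 to 5090 CPM with the QKI shRNA and 5391 to 5786 CPM with the control shRNA, against 15.1 to 34.7 CPM in untreated HPB-ALL. They are therefore called the libraries labelled HPB-ALL. The Jurkat control columns are headed shNTC and were taken as the control siRNA, the only Jurkat control in the labels.

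QKI fell in both knockdowns, by more in Jurkat. With the QKI siRNA it stood at 24.9, 17.5, 18.2 and 25.3 CPM in Jurkat pairs 1 to 4, against 148, 176, 137 and 133 CPM with the control siRNA, a geometric mean of 14.3% of control. In the libraries labelled HPB-ALL it stood at 54.6, 54.9, 55.9 and 57.7 CPM with the QKI shRNA, against 105, 103, 101 and 107 CPM with the control shRNA, a log2 fold change of -0.90 (SE 0.03, edgeR Benjamini-Hochberg adjusted p = 1.1e-07). QKI was thus reduced but not absent, at 17.5 CPM or more in every knockdown library.

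In Jurkat, 5 of the 6 genes were lower and FSD1L was higher with the QKI siRNA in all 4 pairs. GGCX had 28.8, 30.2, 30.4 and 29.3 CPM with the QKI siRNA in pairs 1 to 4, against 50.6, 55.9, 54.2 and 47.8 CPM with the control siRNA. Its groups did not overlap, its levels within a group were close together, and its log2 differences in the 4 pairs lay between -0.89 and -0.70. RBL1 had 76.3, 74.2, 70.3 and 78.5 CPM with the QKI siRNA, against 108, 118, 97.7 and 95.2 CPM with the control siRNA. Its groups did not overlap either, and its log2 differences lay between -0.68 and -0.28, smallest in pair 4. Groups that do not overlap were seen for 1.07% of 21296 tested genes in this comparison, from which nothing is read here, since it chose the genes.

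For the other 4 genes the groups overlapped, and the difference stood out within pairs only. HOOK3 had 70.2, 52.2, 34.7 and 36.2 CPM with the QKI siRNA in pairs 1 to 4, against 113, 135, 68.0 and 68.2 CPM with the control siRNA. Both groups were higher in pairs 1 and 2, and the log2 differences ran from -1.38 in pair 2 to -0.68 in pair 1. ATP8A1 had 56.0, 67.0, 39.7 and 41.4 CPM with the QKI siRNA, against 83.9, 91.6, 52.5 and 56.9 CPM with the control siRNA. It too was higher in pairs 1 and 2, and its log2 differences, -0.58, -0.45, -0.40 and -0.46, were close together. UFC1 had 35.7, 35.9, 69.2 and 75.2 CPM with the QKI siRNA, against 75.3, 62.9, 120 and 107 CPM with the control siRNA. UFC1 showed the opposite order, with pairs 1 and 2 lower in both groups, and log2 differences between -1.08 and -0.52. FSD1L had 40.4, 27.3, 20.0 and 18.4 CPM with the QKI siRNA, against 19.6, 17.5, 11.2 and 10.1 CPM with the control siRNA. It was higher in pairs 1 and 2 of both groups, and its log2 differences of 1.04, 0.64, 0.84 and 0.86 were all positive.

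**Figure D1:**
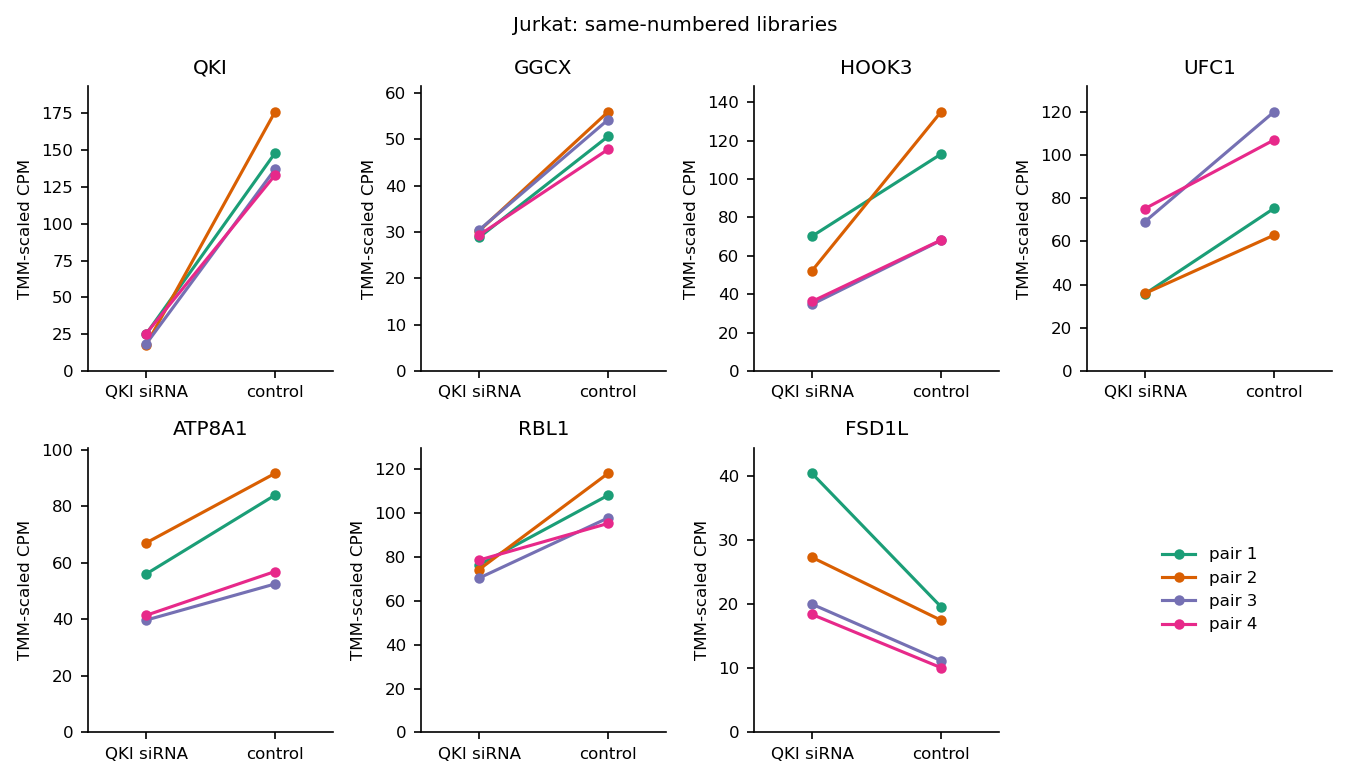
Level of QKI and the 6 genes in Jurkat, in TMM-scaled CPM, with the QKI siRNA on the left and the control siRNA on the right of each panel; each line joins the same-numbered libraries of 1 pair. GGCX and RBL1 keep the groups apart, at 28.8 to 30.4 against 47.8 to 55.9 CPM for GGCX, while HOOK3, UFC1, ATP8A1 and FSD1L shift between pairs by as much as between treatments.

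The shift between pairs was large beside the difference within them. Among the controls alone the highest library was 1.99 times the lowest for HOOK3, 1.94 times for FSD1L, 1.91 times for UFC1 and 1.75 times for ATP8A1, and only 1.24 times for RBL1 and 1.17 times for GGCX. Balance between long and short transcripts moved with the pairs too. The mean log2 deviation of genes with a transcript of at least 5157 bases, minus that of genes of at most 2165 bases, was 0.24, -0.15, -0.14 and -0.16 with the QKI siRNA in pairs 1 to 4, and 0.28, 0.22, -0.19 and -0.10 with the control siRNA. In pair 2 the 2 treatments therefore differed in this balance, and that pair had the largest fall of HOOK3, whose transcript is 14398 bases long, and of QKI (9463 bases), GGCX (7569 bases) and RBL1 (5684 bases). ATP8A1, at 8270 bases, had its largest fall in pair 1 instead. Of the genes with short transcripts, UFC1 (1114 bases) also had its largest fall in pair 1. FSD1L had its smallest rise in pair 2, at 0.64 on the log2 scale. Its main coding transcript has 1711 bases, but all its annotated exons together have 9877. The counts are gene totals, so its place among the short genes depends on the transcript taken. In pairs 1, 3 and 4 the fall of HOOK3 was 0.68, 0.97 and 0.91 on the log2 scale. The part of the balance between long and short transcripts in these differences was not tested.

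Without regard to the pairs, edgeR called none of the 6 genes in Jurkat (1 of 21296 genes called, 0.00470%), 5 of the 6 had an unadjusted p under 0.05, and DESeq2 called 1. With the pair as a block it called all 6, which is how they were chosen (9 of 21296 genes, 0.0423%). The blocked log2 fold changes were -0.81 for GGCX (SE 0.06), -0.98 for HOOK3 (SE 0.09), -0.80 for UFC1 (SE 0.08), -0.47 for ATP8A1 (SE 0.06), -0.48 for RBL1 (SE 0.07) and 0.85 for FSD1L (SE 0.08). RBL1 was the last gene inside the threshold, with a Benjamini-Hochberg adjusted p of 0.0408 in the edgeR fit with the block. RNF165, at a log2 fold change of -0.97, and PTBP2, at 0.42, lay just outside it, both with an adjusted p of 0.0689 in that fit. With the block but without replicate 1, 2, 3 or 4, the fit called 4, 6, 5 and 4 of the 6 genes. ATP8A1 had an edgeR adjusted p of 0.542 without replicate 1 and 0.238 without replicate 4, and RBL1 had 0.576, 0.0848 and 0.0842 without replicates 1, 3 and 4.

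The shRNA comparison repeated part of this picture. HOOK3, ATP8A1 and RBL1 fell and FSD1L rose, while GGCX and UFC1 did not pass the test. That is 4 of 6 genes called, 3 lower and 1 higher, where 23.2% of 17974 tested genes were called (10.4% lower and 12.8% higher). The groups did not overlap for these 4 genes, as for 26.2% of all tested genes. The median size of the log2 fold change over all tested genes was 0.13. In such bulk samples, fewer cells of a type and less RNA per cell cannot be told apart.

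HOOK3 fell most evenly. It had 82.5, 82.9, 82.1 and 84.9 CPM with the QKI shRNA, against 119, 119, 119 and 113 CPM with the control shRNA. Every QKI shRNA library lay far below every control. The log2 fold change was -0.50 (SE 0.03, 95% interval -0.57 to -0.43, edgeR Benjamini-Hochberg adjusted p = 3.08e-06), the 23rd smallest p among all genes tested and larger in size than that of 94.1% of them. Leaving out any 1 library kept it between -0.52 and -0.49.

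ATP8A1, a low gene in these libraries, had 6.93, 6.41, 6.0 and 6.54 CPM with the QKI shRNA, against 10.1, 8.33, 9.26 and 8.08 CPM with the control shRNA. The groups stayed apart although the controls were spread. Its log2 fold change was -0.47 (SE 0.07, 95% interval -0.63 to -0.31, edgeR adjusted p = 0.00107). RBL1 had 56.8, 59.9, 59.3 and 58.5 CPM with the QKI shRNA, against 70.3, 71.6, 69.7 and 66.4 CPM with the control shRNA. All 4 QKI shRNA libraries were lower than all 4 controls, and the change was small, -0.25 on the log2 scale (SE 0.04, 95% interval -0.32 to -0.17, edgeR adjusted p = 0.000606).

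FSD1L was the 1 gene that rose. It had 18.4, 19.8, 18.2 and 18.4 CPM with the QKI shRNA, against 17.4, 16.4, 16.5 and 16.3 CPM with the control shRNA. The groups were close but did not overlap. The log2 fold change was 0.16 (SE 0.04, 95% interval 0.07 to 0.26, edgeR adjusted p = 0.0185). Its call was lost without QKI shRNA replicate 2, the highest library (0.14, edgeR adjusted p = 0.0536), and with the replicate number as a block, where 3 of the 6 genes and 17.0% of all genes were called (0.16, edgeR adjusted p = 0.0521).

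GGCX, steady within each Jurkat group, showed no detectable difference here. It had 8.93, 9.16, 8.60 and 8.42 CPM with the QKI shRNA, against 8.82, 8.46, 9.17 and 8.85 CPM with the control shRNA. The groups overlapped throughout. The log2 fold change was -0.01 (SE 0.05, 95% interval -0.12 to 0.10, edgeR adjusted p = 0.940). Between 702 and 1239 reads per library were counted for it.

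UFC1 differed in 1 library only. It had 65.0, 68.4, 67.8 and 33.7 CPM with the QKI shRNA, against 63.7, 69.8, 65.7 and 70.3 CPM with the control shRNA. Libraries 1 to 3 with the QKI shRNA lay among the controls, and the fourth was far below all others. The log2 fold change was -0.20 (SE 0.17, 95% interval -0.57 to 0.17, edgeR adjusted p = 0.436), and -0.00 without that library (edgeR adjusted p = 0.955). In this table the balance between long and short transcripts stayed between -0.02 and 0.04 with the QKI shRNA and between -0.07 and 0.05 with the control shRNA, and the low UFC1 library had the 0.04.

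**Figure D2:**
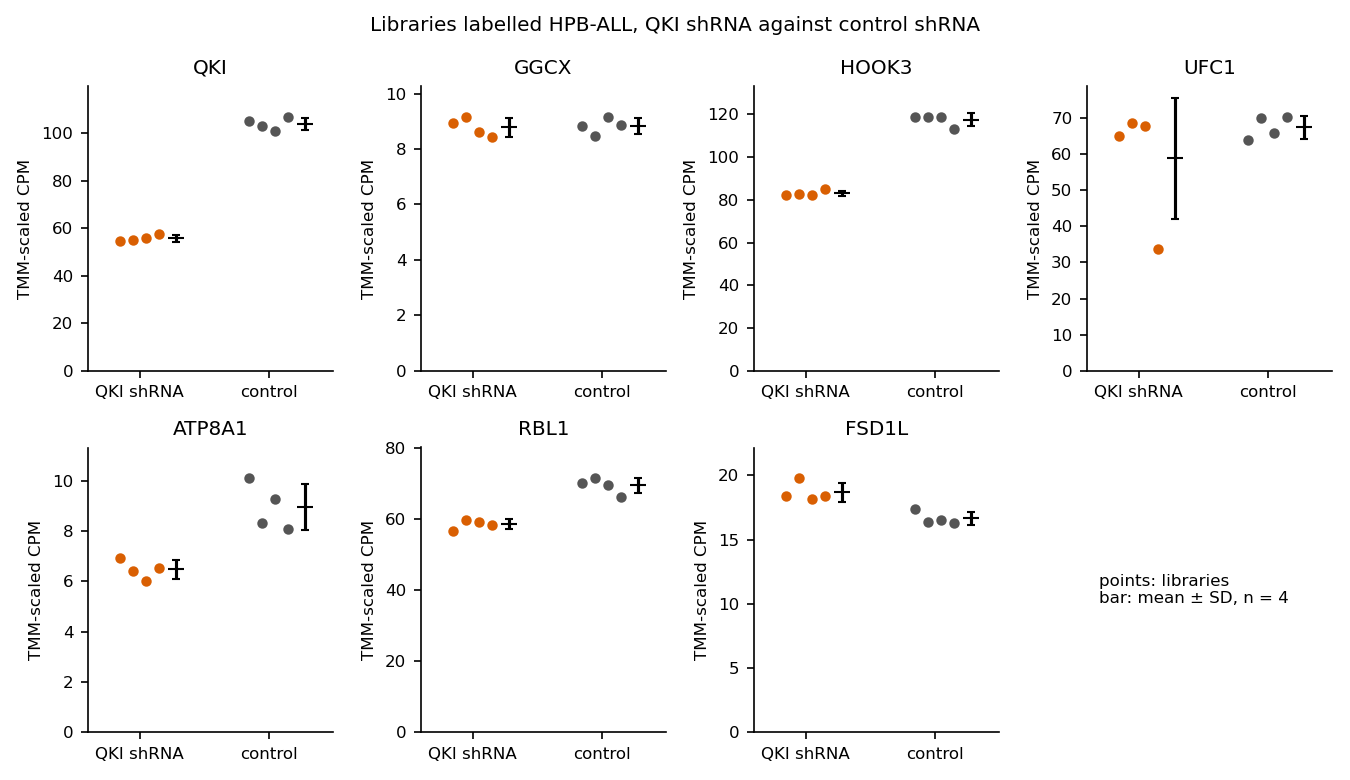
Level of QKI and the 6 genes in the libraries labelled HPB-ALL, in TMM-scaled CPM, QKI shRNA left and control shRNA right; points are libraries and bars are mean ± SD (n = 4). HOOK3, ATP8A1 and RBL1 lie below the controls and FSD1L above them in all 4 QKI shRNA libraries, GGCX overlaps, and UFC1 has 1 low library at 33.7 CPM.

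**Figure D3:**
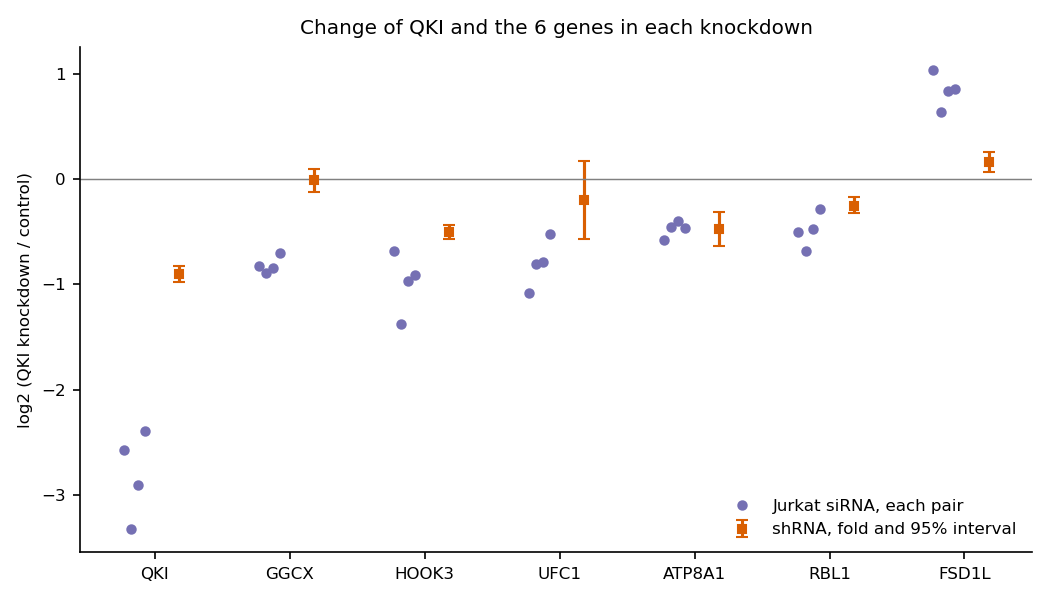
Log2 change of QKI and the 6 genes, QKI knockdown over control: dots are the 4 Jurkat pairs, squares are the shRNA fold changes with 95% intervals. QKI lies between -3.33 and -2.39 in the Jurkat pairs and at -0.90 with the shRNA; the shRNA values of GGCX (-0.01) and UFC1 (-0.20) have intervals that include 0.

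Set side by side, the shRNA fold changes were smaller in size than every Jurkat pair difference for GGCX, HOOK3, UFC1, RBL1 and FSD1L, and so was that of QKI. For ATP8A1 the shRNA value of -0.47 lay within the Jurkat pairs (-0.58 to -0.40), while QKI itself fell by 46.4% with the shRNA and by 85.6% with the siRNA in the edgeR fits. The difference between the 2 experiments was not tested, since the Jurkat values chose the genes.

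Levels of the genes also differed between the tables. ATP8A1 averaged 6.47 ± 0.382 CPM with the QKI shRNA and 8.94 ± 0.916 CPM with the control shRNA in the libraries labelled HPB-ALL, and 118 ± 35.3 CPM in untreated HPB-ALL (SD, n = 4 each). GGCX averaged 8.78 ± 0.331 CPM with the QKI shRNA, 8.82 ± 0.287 CPM with the control shRNA and 21.1 ± 1.19 CPM in untreated HPB-ALL (SD, n = 4 each). HOOK3 ran the other way, at 83.1 ± 1.23 CPM with the QKI shRNA, 117 ± 3.20 CPM with the control shRNA and 58.4 ± 8.68 CPM in untreated HPB-ALL (SD, n = 4 each). These tables were normalized separately, and no test was made across them. None of the T-cell markers passed 1 CPM in the shRNA libraries, unlike in untreated HPB-ALL. Treatment, table and cell identity therefore cannot be told apart in these levels.

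Reads of neighbouring genes could enter these counts, because the sources used here do not say whether strand was considered in counting. MAT2A, the methionine adenosyltransferase gene on the opposite strand, shares 558 of the 9098 exonic bases of GGCX. In Jurkat MAT2A had 444, 109, 1309 and 1299 CPM with the QKI siRNA, against 486, 103, 1267 and 1301 CPM with the control siRNA. It thus varied 12.6-fold among the controls, but its mean log2 difference within pairs was -0.00 ± 0.09 (SD, 4 pairs). GGCX stayed within 1.17 times among the controls, and the part of MAT2A reads in its counts was not tested. With the shRNA MAT2A fell by 0.17 on the log2 scale (SE 0.05, edgeR adjusted p = 0.0242). RNF170, opposite to HOOK3, shares no exonic base with it and had a log2 fold change of -0.11 with the shRNA (edgeR adjusted p = 0.0845) and a mean of 0.05 in the Jurkat pairs. The antisense gene AL590714.1 shares 331 of 2274 exonic bases with UFC1 and stayed under 1 CPM in all knockdown libraries. AL136172.1, antisense to RBL1 with 211 shared bases, stood between 0.297 and 2.10 CPM with the QKI siRNA and between 0.323 and 1.01 CPM with the control siRNA. The pseudogene RALGAPA1P1 within FSD1L shares no exonic base with it and stood between 1.66 and 2.34 CPM with the QKI siRNA and between 1.49 and 2.55 CPM with the control siRNA. AC110275.1, which shares 71 bases with HOOK3, had 0 counts in all 16 knockdown libraries.

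The pathways around the genes were described from lists without the 6 genes themselves. In Jurkat, with the block, none of the 6 lists held a called gene; by unadjusted p under 0.05 edgeR gave 1 gene each in the dynein, flippase, E2F and FSD1 lists and 0 in the vitamin K and UFM1 lists. With the shRNA, where 23.2% of all genes were called, the lists differed in their counts. Their medians stayed near that of all tested genes, -0.01 on the log2 scale.

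Around GGCX, 2 of 13 tested genes on the list made for the vitamin K cycle and carboxylated proteins rose and 2 fell with the shRNA (median log2 fold change -0.06). CALU, calumenin of the endoplasmic reticulum, known to inhibit the carboxylase, averaged 168 ± 9.23 CPM with the QKI shRNA and 212 ± 5.96 CPM with the control shRNA (SD, n = 4 each), a log2 fold change of -0.34 (edgeR adjusted p = 0.000299). TMEM120A, counted on this list although a role in the vitamin K cycle was not checked, fell by 0.15 on the log2 scale. PRRG4, a membrane protein with a carboxylated domain, rose by 0.21.

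Around HOOK3, 6 of 33 genes on the list made for HOOK adaptors, dynein and dynactin rose and 3 fell (median 0.04). A kinesin gene on this list is among those that rose. DCTN6, a dynactin subunit, averaged 5.62 ± 0.519 CPM with the QKI shRNA and 7.32 ± 0.135 CPM with the control shRNA (SD, n = 4 each), a log2 fold change of -0.38 (edgeR adjusted p = 0.00190). DYNC1LI2, a light intermediate chain of dynein, rose by 0.18. The cargo adaptors BICD1 and BICD2 moved in opposite directions, by -0.17 and 0.14. HOOK2, a paralogue of HOOK3, had a log2 fold change of -0.03 and did not pass the test (edgeR adjusted p = 0.772).

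Around UFC1, edgeR called 0 of 11 genes of UFM1 conjugation with the shRNA, and 3 had an unadjusted p under 0.05 (median -0.00). UFM1 itself averaged 93.3 ± 1.90 CPM with the QKI shRNA and 95.9 ± 4.44 CPM with the control shRNA (SD, n = 4 each). UFL1, the ligase that acts after UFC1, averaged 84.4 ± 1.77 CPM with the QKI shRNA and 84.4 ± 3.0 CPM with the control shRNA (SD, n = 4 each).

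Around ATP8A1, 4 of 16 flippase and scramblase genes rose and 4 fell (median 0.07). TMEM30A, the subunit that P4-type ATPases such as ATP8A1 need to leave the endoplasmic reticulum, averaged 188 ± 6.45 CPM with the QKI shRNA and 221 ± 12.3 CPM with the control shRNA (SD, n = 4 each), a log2 fold change of -0.23 (edgeR adjusted p = 0.00348). ATP9A, another P4-type ATPase, fell by 0.47. XKR8, a scramblase that exposes phosphatidylserine in dying cells, rose by 0.39.

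Around RBL1, 8 of 25 genes of the pocket protein, E2F and DREAM list rose and 2 fell (median 0.08). E2F2, an activating E2F, averaged 27.1 ± 0.706 CPM with the QKI shRNA and 17.8 ± 1.17 CPM with the control shRNA (SD, n = 4 each), a log2 fold change of 0.61 (edgeR adjusted p = 1.5e-05). CCNE2, a cyclin of the entry into S phase, rose by 0.39. DYRK1A, a kinase that promotes assembly of the DREAM repressor, rose by 0.28, and the cyclin-dependent kinase inhibitor CDKN1B rose by 0.19. The other pocket protein genes did not pass the test, with log2 fold changes of 0.04 for RB1 (edgeR adjusted p = 0.613) and 0.01 for RBL2 (edgeR adjusted p = 0.922). Of the relatives of FSD1L, edgeR tested 4 and called 0 with the shRNA, and 2 had an unadjusted p under 0.05 (median 0.05).

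In the untreated lines the 6 genes followed different orders. All 6 differed between lines by the edgeR F test, as did 98.0% of 20348 tested genes, so that call sets none of them apart. Nothing says that the 4 libraries of a line came from separate cultures, so these p-values measure only the spread between the libraries, which may be technical. QKI averaged 0 CPM in LOUCY, 6.71 ± 0.776 in KARPAS-45, 88.0 ± 5.54 in DND-41, 130 ± 11.5 in ALL-SIL, 137 ± 19.7 in HPB-ALL and 162 ± 4.24 in TALL-1 (SD, n = 4 each). LOUCY had 0 QKI counts among 218.4 M, which allows at most 0.0614 CPM in a library (3 counts, covering counting error only).

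GGCX was highest in DND-41 (29.7, 31.7, 31.4 and 27.6 CPM) and TALL-1 (23.5, 26.3, 27.9 and 33.7 CPM), followed by HPB-ALL at 21.1 ± 1.19 CPM and ALL-SIL at 17.3 ± 0.909 CPM (SD, n = 4 each). LOUCY (13.6, 11.5, 12.4 and 13.9 CPM) and KARPAS-45 (9.41, 10.5, 11.4 and 11.4 CPM), the lines with the least QKI, were lowest. DND-41 and TALL-1 overlapped and did not differ beyond their spread (edgeR adjusted p = 0.410). Every other step down the order passed the test, and the smallest, between LOUCY and KARPAS-45, was 0.27 on the log2 scale (edgeR adjusted p = 0.0343).

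HOOK3 was highest in ALL-SIL, at 78.0, 75.4, 81.9 and 80.6 CPM, and lowest in LOUCY, at 23.5, 27.2, 28.5 and 25.1 CPM. HPB-ALL averaged 58.4 ± 8.68 CPM, KARPAS-45 50.5 ± 2.55, DND-41 48.8 ± 4.81 and TALL-1 39.7 ± 5.51 (SD, n = 4 each). ALL-SIL exceeded HPB-ALL by 0.44 on the log2 scale (edgeR adjusted p = 0.00155), and TALL-1 exceeded LOUCY by 0.61 (edgeR adjusted p = 4.23e-05). DND-41 exceeded TALL-1 by 0.30 (edgeR adjusted p = 0.0268), although their libraries overlapped. HPB-ALL and KARPAS-45 (adjusted p = 0.0882), and KARPAS-45 and DND-41 (adjusted p = 0.719), did not differ beyond their spread in edgeR. TALL-1, the line with the most QKI, thus had the second lowest HOOK3.

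UFC1 set LOUCY apart, at 144, 135, 133 and 114 CPM. DND-41 came next, at 82.0 ± 6.84 CPM (SD, n = 4), and LOUCY exceeded it by 0.68 on the log2 scale (edgeR adjusted p = 0.000335). KARPAS-45 at 72.6 ± 4.36, TALL-1 at 71.1 ± 8.24, HPB-ALL at 70.9 ± 21.6 and ALL-SIL at 57.7 ± 7.72 CPM followed (SD, n = 4 each), and no neighbours among these 5 lines differed beyond their spread (edgeR adjusted p between 0.0903 and 0.998).

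ATP8A1 varied widely, with LOUCY at 24.5 times ALL-SIL. It had 105, 121, 125 and 166 CPM in LOUCY and 75.4, 122, 114 and 161 CPM in HPB-ALL. These 2 lines, the first with 0 QKI counts and the other with high QKI, overlapped (edgeR adjusted p = 0.523). KARPAS-45 had 59.3 ± 4.18 CPM, TALL-1 32.0 ± 6.77 and DND-41 25.1 ± 1.89 (SD, n = 4 each), the last 2 not passing the test although their libraries did not overlap (edgeR adjusted p = 0.103). ALL-SIL, at 6.35, 5.47, 4.86 and 4.42 CPM, was below DND-41 by 2.25 on the log2 scale (edgeR adjusted p = 2.47e-10).

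RBL1 was highest in TALL-1, at 129, 123, 127 and 150 CPM, and lowest in LOUCY, at 39.7, 41.6, 43.4 and 50.8 CPM. DND-41 averaged 106 ± 33.0, ALL-SIL 95.2 ± 23.4, KARPAS-45 92.9 ± 2.67 and HPB-ALL 73.8 ± 22.3 CPM (SD, n = 4 each). Only the last step, from HPB-ALL to LOUCY, passed the test, at 0.75 on the log2 scale (edgeR adjusted p = 0.00132). The wide spread came with the fourth library, which was the highest of the 4 in 6 of 6 lines for RBL1 and the lowest in 6 of 6 for UFC1. In 6 of 6 lines the fourth library had the highest balance between long and short transcripts or shared it, ranging in HPB-ALL from -0.63 in library 1 to 0.33 in library 4.

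FSD1L had 0 counts in all 4 TALL-1 libraries, among 230.2 M counts, which allows at most 0.0581 CPM in a library. LOUCY (22.8, 23.3, 23.1 and 15.0 CPM) and ALL-SIL (16.8, 17.7, 22.4 and 21.0 CPM) were highest and overlapped (edgeR adjusted p = 0.614). KARPAS-45 at 11.9 ± 0.798, DND-41 at 11.8 ± 1.67 and HPB-ALL at 11.4 ± 3.34 CPM (SD, n = 4 each) lay together, with edgeR adjusted p of 0.992 and 0.844 between neighbours. Against the floor of TALL-1, LOUCY was at least 362-fold higher and HPB-ALL at least 196-fold higher. TALL-1 is the line with the most QKI, and LOUCY, with 0 QKI counts, had the most FSD1L, but ALL-SIL had nearly as much FSD1L with high QKI.

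**Figure D4:**
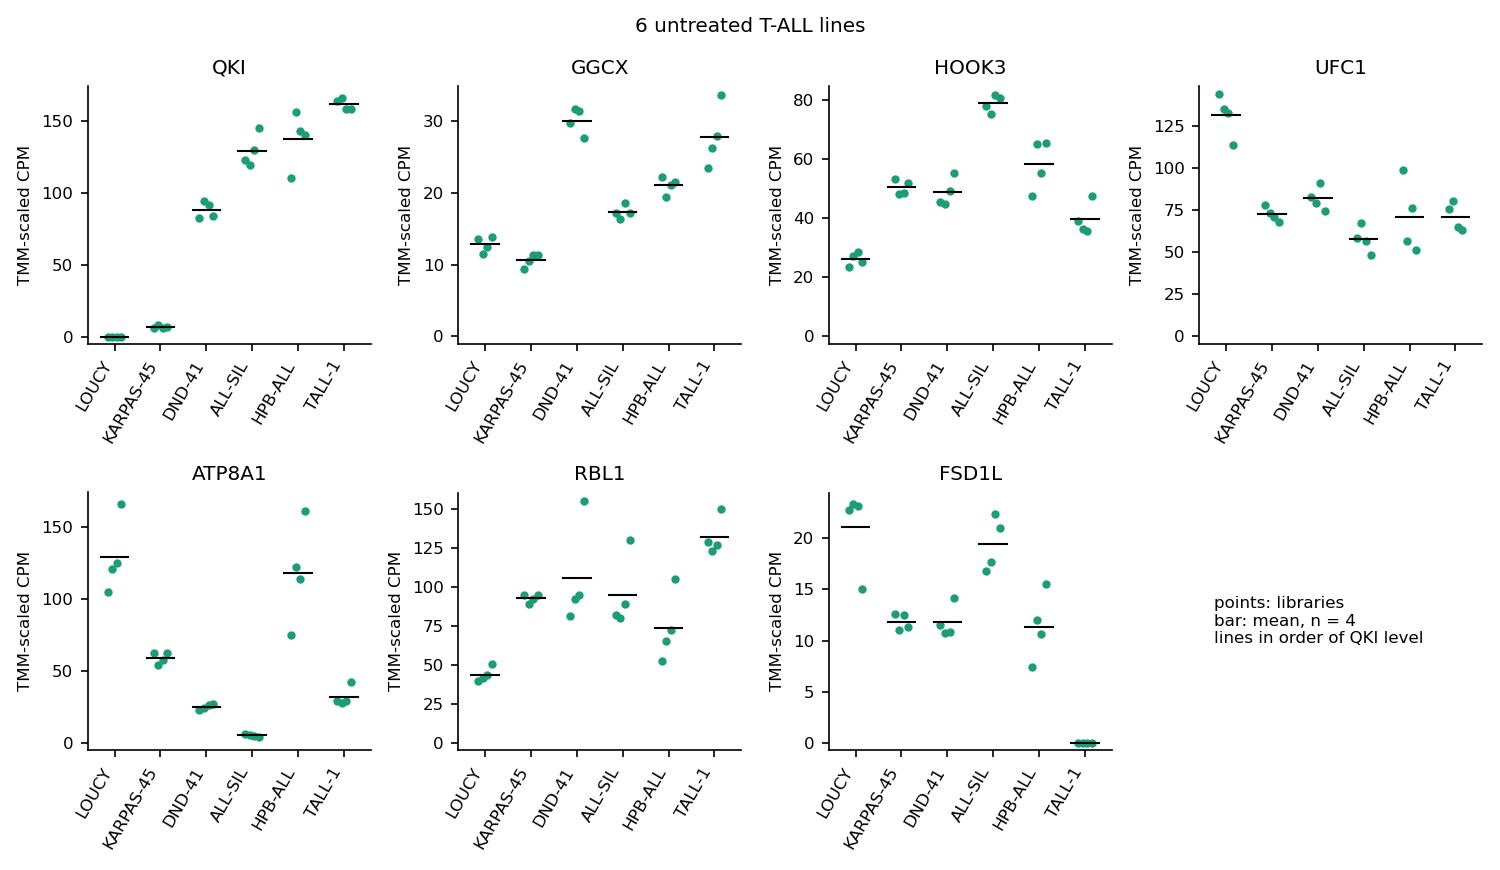
Level of QKI and the 6 genes in the 6 untreated lines, in TMM-scaled CPM, ordered along the x axis from the lowest to the highest QKI; points are libraries and bars are means (n = 4). UFC1 stands out in LOUCY at 114 to 144 CPM, ATP8A1 is high in LOUCY and HPB-ALL, and FSD1L is at 0 in TALL-1.

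Across the 6 line means of log2 CPM, the Pearson correlation with QKI was 0.67 for GGCX, 0.76 for HOOK3, 0.82 for RBL1, -0.37 for FSD1L, -0.55 for ATP8A1 and -0.89 for UFC1. Over 20348 genes the same correlation had a median of 0.01 and quartiles of -0.39 and 0.40. GGCX, HOOK3 and RBL1, lower with the QKI siRNA, had positive values here, and FSD1L, higher with it, had a negative one. UFC1 and ATP8A1, also lower with the QKI siRNA, had negative values. The points are 6 lines from 1 table that differ in more than QKI, and LOUCY alone spans most of the QKI range on a log scale. Without LOUCY, 5 lines gave 0.81 for GGCX, 0.11 for HOOK3, 0.12 for RBL1, -0.33 for FSD1L, -0.29 for ATP8A1 and -0.26 for UFC1. HOOK3, RBL1 and UFC1 thus moved towards 0 without LOUCY, and GGCX did not. KARPAS-45, at 6.71 CPM of QKI, then spans most of the remaining QKI range on a log scale. In DND-41, ALL-SIL, HPB-ALL and TALL-1, QKI averaged 88.0, 130, 137 and 162 CPM. GGCX averaged 30.1, 17.3, 21.1 and 27.8 CPM in these lines, which is not the order of QKI. The Spearman correlations over 6 lines were 0.60 for GGCX, 0.31 for HOOK3, 0.60 for RBL1, -0.83 for FSD1L, -0.37 for ATP8A1 and -0.71 for UFC1.

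**Figure D5:**
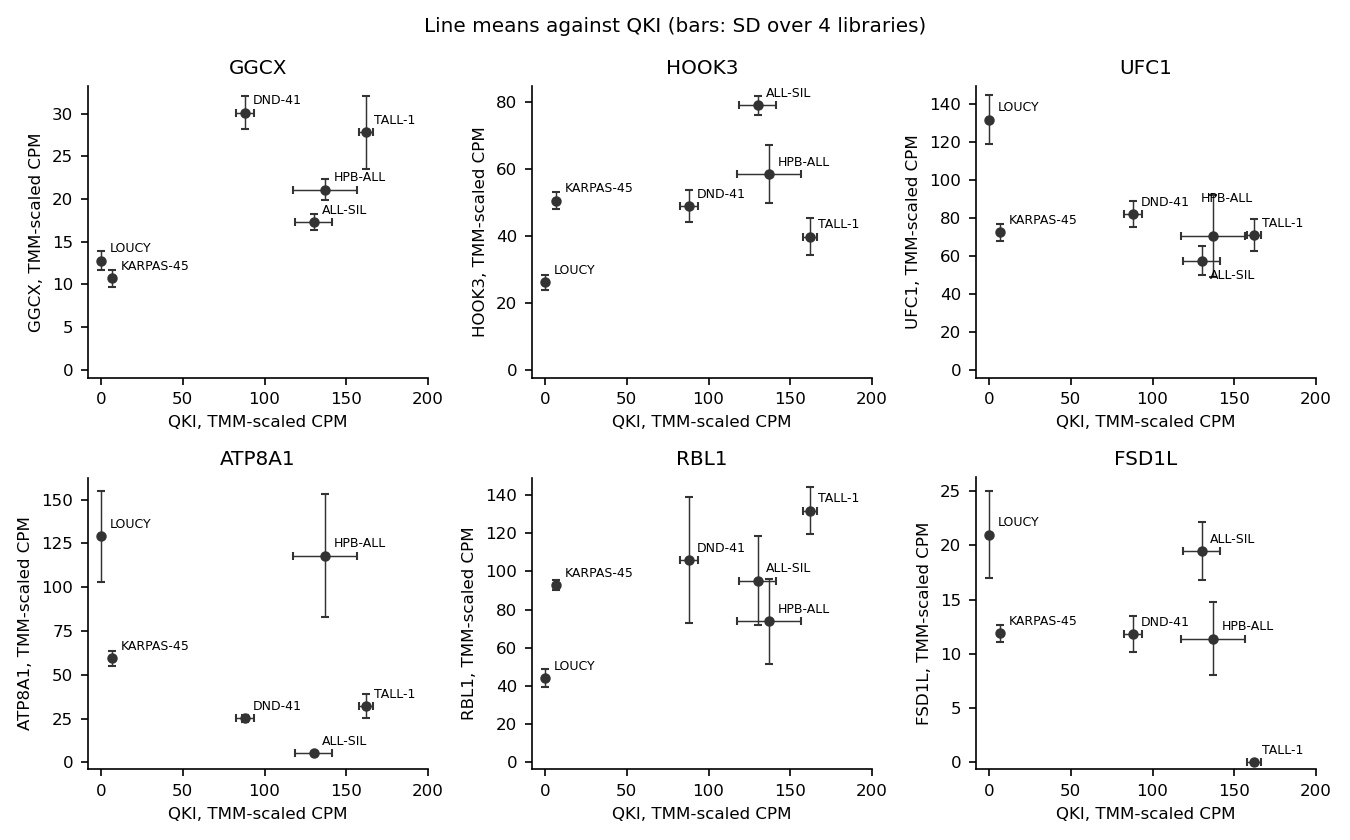
Line means of each gene against the line means of QKI, both in TMM-scaled CPM on linear axes, with bars of 1 SD over 4 libraries. GGCX is lowest in LOUCY and KARPAS-45, the 2 lines with QKI under 10 CPM, and UFC1 and HOOK3 set LOUCY apart from the other 5 lines.

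Among themselves the 6 genes had line patterns of both signs. HOOK3 and UFC1 were the most opposed pair (-0.91 over 6 line means), and UFC1 and ATP8A1 had the highest positive value (0.64). The genes whose log2 CPM was most like each member over the 24 line libraries, out of 12092, were RNASE6 (0.961) and ITGA1 (0.951) for GGCX, and SYNM-AS1 (0.955) and FAN1 (0.930) for HOOK3. They were RPS27L (0.930) and ARHGDIB (0.908) for UFC1, and GLIS2 (0.968) and MTSS2 (0.956) for ATP8A1. For RBL1 they were BTAF1 (0.962) and TBC1D32 (0.926), and for FSD1L DGKH (0.994) and ZNF711 (0.992). These are Pearson correlations given as descriptions, over libraries of which each 4 share a line. FSD1L had 0 counts in TALL-1, which spans most of its range on a log scale, so its correlations rest largely on that line.

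Set against the mean of the other 5 lines, the 6 genes gave 26 of 36 called contrasts (72.2%), and 20 of 30 (66.7%) without FSD1L, where 62.7% of all contrasts over all genes were called. In LOUCY, where 65.8% of all genes were called, all 6 genes were called, in both directions, but the contrast of FSD1L rests on the 0 counts of TALL-1 and its size is not given. UFC1 was higher, and HOOK3 and RBL1 were lower, than in each of the other lines, while GGCX was lower still in KARPAS-45 and ATP8A1 overlapped with HPB-ALL. ATP8A1 was above the mean of the other lines by 2.05 on the log2 scale (SE 0.12, edgeR adjusted p = 6.74e-14) and UFC1 by 0.90 (SE 0.11, edgeR adjusted p = 7.32e-08). RBL1 was below that mean, at -1.16 (SE 0.16, edgeR adjusted p = 6.69e-07), as were HOOK3, at -1.05 (SE 0.09, edgeR adjusted p = 3.67e-10), and GGCX, at -0.64 (SE 0.09, edgeR adjusted p = 7.3e-07). In KARPAS-45, the line with the second lowest QKI, 73.2% of all genes were called. GGCX was below the mean of the other lines there too (-0.96, SE 0.09, edgeR adjusted p = 8.4e-10), while HOOK3, UFC1 and RBL1 gave 0.10, -0.13 and 0.14 and did not pass the test. ATP8A1 gave 0.70 there (SE 0.13, edgeR adjusted p = 3.28e-05), although its 59.3 CPM lay below the mean of the other 5 line means, 62.0 CPM: the contrast averages log2 levels, in which the 5.27 CPM of ALL-SIL weighs heavily, and LOUCY and HPB-ALL were higher than KARPAS-45. The balance between long and short transcripts was 0.56 to 0.70 in KARPAS-45 and -0.63 to 0.33 in the other lines, and its part in these differences was not tested.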

How the data were processed

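RNA of 40 human cell line libraries in 10 groups of 4 was sequenced. The authors deposited 3 tables of whole-number counts, 1 value per gene and library, per the file headers. Per the submitters' processing notes, reads were trimmed with Trimmomatic 0.39 and aligned with STAR 2.7.11b to GRCh38; how reads were assigned to genes, with or without strand and on which annotation, is not stated in the labels. Rows that name no gene, 13.0% to 15.1% of the reads of the shRNA table, were left out. 62700 of 62754 genes matched a symbol.

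Each table was tested on its own with the quasi-likelihood F test of edgeR 4.0.16 under R 4.3.3, after filterByExpr and TMM. P-values were adjusted by Benjamini-Hochberg over all tested genes (threshold 0.05). Each line was set against the other 5, and against its neighbours in a gene's order. Log2 CPM used a prior count of 2. Motifs and positions came from GENCODE 29. The length balance compared coding genes beyond the upper and lower quartile of transcript length, at a mean log2 CPM of 3 or more, and was added after seeing values. As alternatives, the fits were repeated with RLE size factors, without the filter, with DESeq2 1.42.0, limma-voom (limma 3.58.1), the replicate number as a block, and leaving out each library.

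The members and gene lists were chosen with earlier results of these data known. The text names the members, QKI, overlapping genes, up to 4 called genes of each list, the genes beside the Jurkat threshold and the 2 most alike genes per member; HOOK2, UFM1, UFL1, RB1, RBL2, CD3G and MT-ND6 were named after seeing their values. Some items under this rule are not reported here.

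In Jurkat, same-numbered libraries deviated together (correlations 0.337 to 0.556 over 4 pairs), so the numbers pair them; no label says what a number stands for. 2 LOUCY columns have no distinct number. No replicates matched within sampling noise (chi-square per degree of freedom 12.7 to 348 over 60 pairs).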

Additional observations from a re-analysis of the deposited data

Results flagged for a closer look

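In 5 of 70 groups of 4 libraries tested for QKI and the 6 genes, 1 library stood apart from the other 3 by Dixon's test at 95%; chance gives this in about 1 in 20 groups. UFC1 in QKI shRNA library 4 was at 33.7 CPM, with the other 3 between 65.0 and 68.4 CPM. FSD1L in QKI shRNA library 2 was at 19.8 CPM, above the next at 18.4 CPM, and its call in that comparison was lost without this library. HOOK3 in control shRNA library 4 was at 113 CPM, below the other 3 at 119 CPM, and its call held without it. ATP8A1 in TALL-1 library 4 was at 42.1 CPM, above the next at 29.2 CPM. FSD1L in LOUCY library 4 was at 15.0 CPM, below the next at 22.8 CPM. In TALL-1 and in LOUCY, library 4 also had the highest balance between long and short transcripts of its line, at 0.02 and 0.04, and its part in these values was not tested.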

How the results depend on the processing

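In the shRNA comparison, 4 of the 6 genes were called with RLE size factors, no filter, DESeq2 and limma-voom, and 3 to 4 without 1 library. Numbers did not pair these libraries (correlations -0.179 to 0.0450 over 4 pairs, and 1 of 8 correlated best with its own number); with the number as a block 3 were called, FSD1L passing to an edgeR adjusted p of 0.0521, and genes called over the whole table went to 3063, and to 3132 to 3808 without 1 library, against 4175. GGCX changed sign around 0, to 0.01 with no filter (edgeR adjusted p = 0.960) and between -0.03 and 0.01 without 1 library.

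In Jurkat, members called were 0 without the block, 1 with DESeq2, 6 with the replicate block and 4, 6, 5 and 4 with the block without replicate 1, 2, 3 and 4. Genes called over the whole table were 1 without the block, 2 with DESeq2, 9 with the replicate block and 6, 13, 20 and 7 with the block without replicate 1, 2, 3 and 4. Fewer libraries enter the last 4 fits; beyond that the cause was not tested.

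In the lines, the F test called 6 of 6 under every alternative run, and 25 to 26 of 36 contrasts were called without 1 library. HOOK3 in DND-41 lay between -0.01 and 0.10 and RBL1 in ALL-SIL between -0.02 and 0.25 without 1 library, both around 0. The correlation with QKI moved without LOUCY to 0.81 for GGCX, 0.11 for HOOK3, -0.26 for UFC1, -0.29 for ATP8A1 and 0.12 for RBL1, and as a rank correlation it was 0.60, 0.31, -0.71, -0.37 and 0.60 for these and -0.83 for FSD1L. Same-number correlations in the lines ran between -0.124 and 0.388. Depth limits FSD1L in TALL-1 and QKI in LOUCY, both at 0, to a bound of 3 counts.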
